A study of Mus musculus with 24 samples.

Results

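miR-106b, miR-93 and miR-25 are made from 1 short cluster of hairpins, and their levels were followed in mouse colon tumours and normal colon mucosa. The members were the probes mmu-miR-106b, mmu-miR-93 and mmu-miR-25, 3 of 566 mouse miRNA probes counted with the NanoString nCounter system, in which coloured barcodes bound to single RNA molecules are counted. The 24 libraries held 5 APC tumours and 6 APC normal samples, and 6 AOM-DSS tumours and 7 AOM-DSS normal samples. The APC samples carry the genotype label APC, and the series text names the APC;CpC mouse, a model in which Cre expressed in colon epithelium deletes the tumour suppressor Apc. The AOM-DSS mouse is given the carcinogen azoxymethane and dextran sulphate sodium, which causes colitis. In each model the normal tissue comes from the colon mucosa and is described as matched to the tumours, so the APC normal samples carry the APC label and the AOM-DSS normal samples the AOM-DSS label too. The sources used here give no strain, age, dose or number of animals. Nothing in the labels says that samples of 1 group came from separate animals, so p-values measure only the spread between these samples. The labels' protocol names formalin-fixed, paraffin-embedded tissue and the series text frozen tissue, and the sources used here do not settle which is right.

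The cluster lies within the gene Mcm7, which encodes a subunit of the helicase that opens DNA for replication, and it is a paralogue of the miR-17-92 cluster. miRNAs repress mRNAs that pair with the seed, the bases near the 5′ end, so miRNAs with the same seed share many targets. miR-106b and miR-93 carry the seed of the miR-17 family, and work in human cells has described the cell cycle inhibitor p21 as a target of that seed. miR-25 carries a different seed, shared with miR-92a, and work in human cells has described the proapoptotic protein BIM among its targets. The cluster is known for raised levels in human gastric and colorectal tumours.

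The mature sequences that these probes are named for are shown with their seeds, bases 2 to 8, in capitals, together with relatives that share a seed, to show how alike the counted molecules are. The deposited tables hold no probe sequences, so the arm of each hairpin was taken from the older probe names without a star.
mmu-miR-106b-5p: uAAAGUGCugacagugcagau
mmu-miR-93-5p: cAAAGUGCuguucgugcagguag
mmu-miR-17-5p: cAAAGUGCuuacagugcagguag
mmu-miR-20a-5p: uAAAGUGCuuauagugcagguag
mmu-miR-25-3p: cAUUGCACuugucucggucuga
mmu-miR-92a-3p: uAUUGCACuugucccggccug
All are mouse RefSeq entries (GRCm38.p6). miR-106b and miR-93 share the seed AAAGUGC but differ by 7 single-base edits over their length, whereas miR-93 and miR-17 differ by 3 and miR-106b and miR-17 by 5. miR-25 and miR-92a share the seed AUUGCAC and differ by 4 edits. The hairpins lie on the minus strand of chromosome 5 in GRCm38.p6, Mir106b at chr5:138165737-138165818, Mir93 at chr5:138165523-138165610 and Mir25 at chr5:138165321-138165404. They span 498 bases, and all 3 fall inside the annotated span of Mcm7, which runs on the same strand. They read in the order Mir106b, Mir93, Mir25 along that strand, with gaps of 126 and 118 bases between them.

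The promoter of the host gene is shown because the hairpins share its transcript. In the RefSeq window at chr5:138171834-138172133 on the minus strand (GRCm38.p6), matches to E2F-type letters and to CCAAT are in capitals.
Mcm7 promoter window: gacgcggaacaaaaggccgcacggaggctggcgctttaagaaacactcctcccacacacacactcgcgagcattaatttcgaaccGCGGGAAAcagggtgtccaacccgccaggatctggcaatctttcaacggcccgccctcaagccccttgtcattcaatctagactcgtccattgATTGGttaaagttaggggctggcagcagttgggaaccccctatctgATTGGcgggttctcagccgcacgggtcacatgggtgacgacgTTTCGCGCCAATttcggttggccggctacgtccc
The E2F search used TTTCCCGC, TTTCGCGC, TTTGCCGC and TTTGGCGC on both strands and found 2 matches. CCAAT, also on both strands, matched 3 times, and 1 of these overlaps an E2F match, so they appear as 1 run of capitals. The E-box letters CACGTG did not match. Of 32851 mouse promoter windows of the same length, 2.26% held an E2F match, 37.4% a CCAAT match and 7.15% an E-box match. A second Mcm7 window, at chr5:138171217-138171516, held 0 E2F matches and 1 CCAAT match. A match describes letters only, and no binding was measured in these samples.

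Every member was well measured. Total mouse miRNA counts ranged over the libraries between 47235 and 329346 with a median of 251263.5, and the 33 probes for viral miRNAs, used as background, gave a background of 8.86 to 65.3 counts (mean plus 2 SD). All 3 members were over background in all 24 libraries, at no less than 3.63 times it. APC tumour 1 and AOM-DSS normal 7 stood apart in total and in profile. Their totals were the lowest, 134680 and 47235 counts, and their profiles correlated with the mean of their group's other libraries at r = 0.949 and 0.931, against 0.977 to 0.990 for the other libraries. All APC libraries ran on cartridge 1. Cartridge 2 held 2 of the AOM-DSS tumours beside all 7 normal samples of that model, and cartridge 3 the other 4 tumours.

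In APC tumours, miR-25 and miR-93 were higher than in APC normal mucosa, and miR-106b was higher in 4 of 5 tumours but did not pass the test. Levels are CPM, the counts of a probe set against its library's mouse miRNA total after TMM scaling, as edgeR computes them. Fold changes come from edgeR's quasi-likelihood test over all 563 tested miRNAs, are given on the log2 scale with SE, and carry p-values adjusted after Benjamini and Hochberg with a threshold of 0.05. Of the 3 members, 2 were called higher, where 9.24% of all tested miRNAs were.

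miR-106b had 929.8, 2299.8, 2293, 2367 and 2095 CPM in APC tumours 1 to 5, against a lowest, median and highest level of 1331, 1423 and 1901 CPM in APC normal samples. The first tumour lay below every normal sample and the other 4 lay above every one. Its means were 1997 ± 605 CPM in APC tumours and 1492 ± 216 CPM in APC normal samples (SD, n = 5 and 6). The log2 fold change was 0.42 ± 0.17 (95% interval 0.09 to 0.76), with an adjusted p of 0.0630 by edgeR's quasi-likelihood test. Without APC tumour 1 it was 0.60, with an adjusted p of 0.00023, and miR-106b was then called higher together with 11.2% of 564 tested miRNAs.

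miR-93, which shares its seed with miR-106b, had 1505, 1974, 1905, 1795 and 1816 CPM in APC tumours 1 to 5, against a lowest, median and highest level of 989, 1187 and 1279 CPM in APC normal samples. The groups did not overlap, as for 4.26% of the tested miRNAs in that direction. The log2 fold change was 0.63 ± 0.13 (adjusted p = 0.000288, edgeR), a 1.55-fold rise.

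miR-25 was the most counted member. It had 4212, 3849.8, 3492, 3839 and 3838 CPM in APC tumours 1 to 5, against a lowest, median and highest level of 1779, 2328 and 3003 CPM in APC normal samples. Every tumour again lay above every normal sample. The log2 fold change was 0.73 ± 0.13 (adjusted p = 2.40e-05, edgeR), a 1.66-fold rise. In APC tumour 1, where miR-106b was low, miR-25 was the highest of the 5 tumours and miR-93 the lowest.

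**Figure D1:**
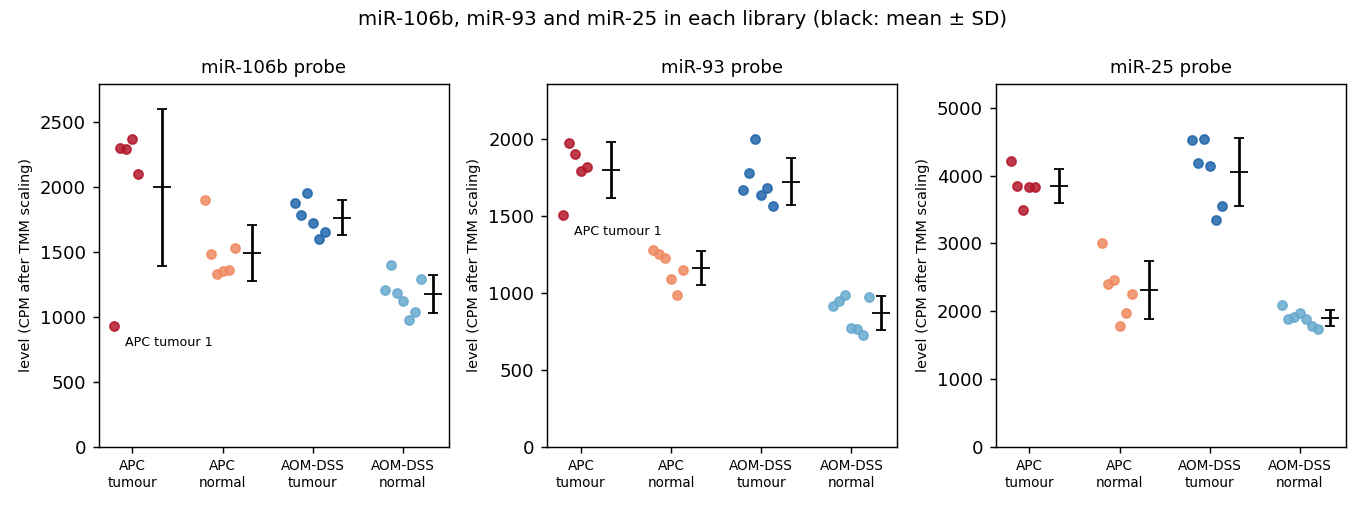
Level of each member in every library, in CPM after TMM scaling, with 1 point per library and the mean ± SD in black for APC tumour (n = 5), APC normal (n = 6), AOM-DSS tumour (n = 6) and AOM-DSS normal (n = 7) samples. Tumours lie above the normal samples of their model except for APC tumour 1 in the miR-106b panel, at 929.8 CPM.

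In AOM-DSS tumours all 3 members rose, miR-25 and miR-93 about as much as each other and miR-106b less. The 3 of 3 called higher compare with 8.53% of all tested miRNAs, and none of the 3 overlapped between tumours and normal samples, as for 3.91% of tested miRNAs in that direction. miR-106b had a lowest, median and highest level of 1595, 1750.3 and 1951 CPM in AOM-DSS tumours, against 972, 1182 and 1397 CPM in AOM-DSS normal samples. Its log2 fold change was 0.59 ± 0.15, a 1.51-fold rise with an adjusted p of 0.00403 by edgeR's quasi-likelihood test.

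miR-93 ranged over 1568, 1676 and 2000.0 CPM (lowest, median, highest) in AOM-DSS tumours, against 728, 915 and 987 CPM in AOM-DSS normal samples. The lowest tumour lay above the highest normal sample by more than the whole range of the normal samples. Its log2 fold change was 0.99 ± 0.12, a 1.99-fold rise (adjusted p = 7.27e-08, edgeR).

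miR-25 had 3345, 4172 and 4541 CPM as its lowest, median and highest level in AOM-DSS tumours, against 1742, 1893 and 2098 CPM in AOM-DSS normal samples. Its log2 fold change was 1.09 ± 0.12, a 2.13-fold rise (adjusted p = 4.47e-09, edgeR), and by size it ranked 11 of the 563 tested miRNAs. miR-93 ranked 14 and miR-106b 47 in the same order. In the APC comparison the ranks were 32 for miR-25, 40 for miR-93 and 76 for miR-106b.

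The AOM-DSS tumours on cartridge 2, the cartridge that also held the AOM-DSS normal samples, were 2 in number. Their lowest levels were 1783 CPM for miR-106b, 1668 CPM for miR-93 and 4195 CPM for miR-25, all above the highest normal samples on that cartridge. Fitted without cartridge 3, the log2 fold changes were 0.61 for miR-106b (adjusted p = 0.0899, edgeR), 0.96 for miR-93 (adjusted p = 0.000439) and 1.17 for miR-25 (adjusted p = 1.75e-05). The miR-106b call was thus lost and its size was not.

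The members did not rise in proportion in AOM-DSS tumours. A ratio of 2 counts from the same library does not depend on how libraries are scaled, so ratios were compared by an exact two-sided permutation test, with p-values adjusted over 6 tests (3 pairs in each model). Probes can differ in efficiency, so only the difference of a ratio between groups is read.

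The count ratio of miR-93 over miR-106b had a lowest, median and highest value of 0.889, 0.974 and 1.06 in AOM-DSS tumours, against 0.677, 0.755 and 0.835 in AOM-DSS normal samples. All 6 tumours lay above every normal sample. The log2 ratio averaged -0.04 ± 0.09 in AOM-DSS tumours and -0.43 ± 0.11 in AOM-DSS normal samples (SD, n = 6 and 7), a 1.32-fold higher ratio (adjusted p = 0.0035, exact permutation test). The unadjusted p of 0.00117 is the smallest that 1716 arrangements can give.

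The ratio of miR-25 over miR-106b was 2.10, 2.34 and 2.42 in AOM-DSS tumours at its lowest, median and highest, against 1.35, 1.72 and 1.94 in AOM-DSS normal samples. Again every tumour was above every normal sample, and the ratio was 1.41-fold higher in AOM-DSS tumours (adjusted p = 0.0035, exact permutation test, n = 6 and 7). The ratio of miR-25 over miR-93 had medians of 2.31 in AOM-DSS tumours and 2.29 in AOM-DSS normal samples. Those groups overlapped, and the log2 ratio differed by 0.10 (adjusted p = 0.364, exact permutation test, n = 6 and 7). Cartridge 2 alone held only 2 tumours beside 7 normal samples. There the tumours were higher in log2 ratio by 0.34 for miR-93 over miR-106b and by 0.55 for miR-25 over miR-106b. The lowest tumour and highest normal sample had log2 ratios of -0.17 and -0.26 for the first and 1.23 and 0.96 for the second. Neither pair of groups overlapped, but 2 tumours are too few to weigh this.

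In APC samples no ratio passed the test. miR-93 over miR-106b was 1.62 in APC tumour 1 and 0.858, 0.831, 0.758 and 0.867 in APC tumours 2 to 5, against 0.673, 0.780 and 0.921 (lowest, median, highest) in APC normal samples. The first tumour stood alone and the other 4 lay inside the range of the normal samples. The log2 ratio was 0.27 higher in APC tumours (adjusted p = 0.286, exact permutation test, n = 5 and 6), and 0.08 higher without APC tumour 1 (adjusted p = 0.503).

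miR-25 over miR-106b was 4.53 in APC tumour 1 and 1.67, 1.52, 1.62 and 1.83 in APC tumours 2 to 5, against 1.32, 1.53 and 1.85 (lowest, median, highest) in APC normal samples. It was 0.40 higher in log2 ratio in APC tumours (adjusted p = 0.260, exact permutation test, n = 5 and 6), and 0.11 higher without APC tumour 1 (adjusted p = 0.503). The raw counts behind APC tumour 1 were 202 for miR-106b, 327 for miR-93 and 915 for miR-25. The miR-25 over miR-93 ratio differed by 0.12 on the log2 scale between APC tumours and APC normal samples (adjusted p = 0.364, exact permutation test). Whether the change of a ratio differed between the models was not tested.

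**Figure D2:**
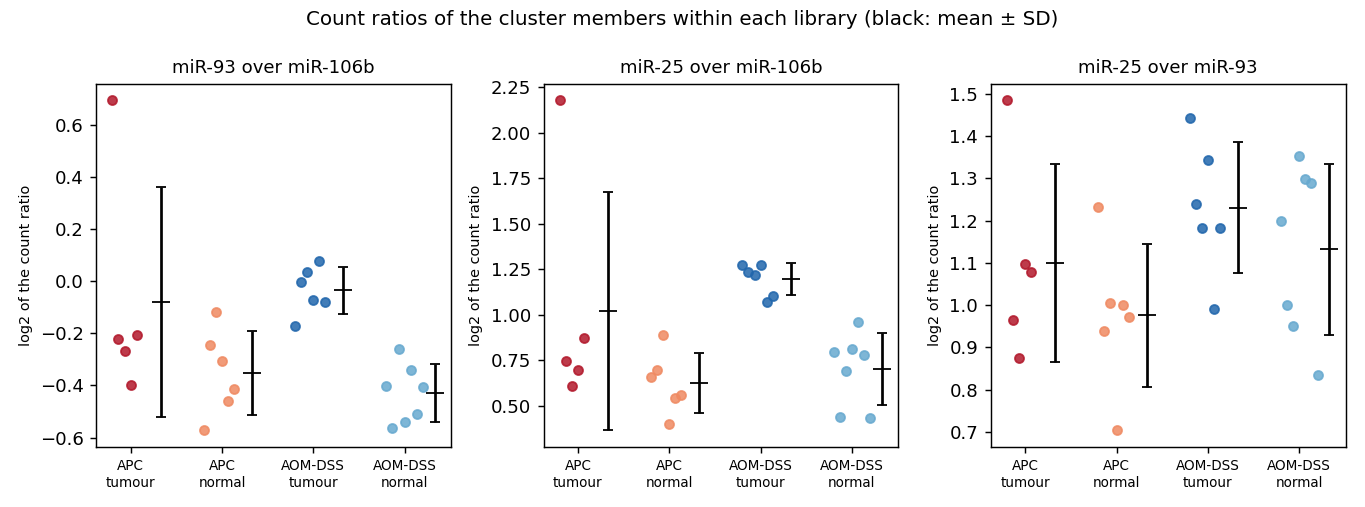
Log2 of the count ratio of each pair of members within each library, with 1 point per library and the mean ± SD in black for the 4 groups. All 6 AOM-DSS tumours lie above all 7 AOM-DSS normal samples in both ratios over miR-106b, and APC tumour 1 lies far above the other APC tumours in the same ratios.

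The rise was not shown to differ between the models. The AOM-DSS tumour effect minus the APC tumour effect, tested as an interaction, was 0.17 ± 0.23 for miR-106b (95% interval -0.29 to 0.63, adjusted p = 0.713, edgeR's quasi-likelihood test). It was 0.36 ± 0.18 for miR-93 (adjusted p = 0.240) and 0.36 ± 0.18 for miR-25 (adjusted p = 0.237). None of the 3 was called, where 6.75% of all tested miRNAs were. The upper ends of the 95% intervals were 0.73 for miR-93 and 0.71 for miR-25, so differences up to that size lie within the intervals. The direction turned with the scaling: by library total the difference was -0.047 for miR-93 and -0.088 for miR-25, and by the mRNA probes it was -0.21 for both and -0.44 for miR-106b. Among miRNAs over viral background, miR-93 was called (0.31, adjusted p = 0.046, edgeR).

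Mean levels in the 4 groups ran in one order for miR-106b and miR-93. miR-106b averaged 1997 CPM in APC tumours, 1763 CPM in AOM-DSS tumours, 1492 CPM in APC normal samples and 1173 CPM in AOM-DSS normal samples, and each neighbour in that order overlapped the next. miR-93 averaged 1799, 1722, 1164 and 871 CPM in the same order of groups. Its tumour groups overlapped each other, its AOM-DSS tumours did not overlap the APC normal samples, and its normal groups did not overlap. The normal groups were barely apart, with a highest AOM-DSS normal level of 987.0 CPM and a lowest APC normal level of 988.8 CPM. miR-25 averaged 4054 CPM in AOM-DSS tumours, 3846 CPM in APC tumours, 2313 CPM in APC normal samples and 1898 CPM in AOM-DSS normal samples. The tumour groups overlapped, as did the normal groups, with a gap between tumours and normal samples.

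Between the normal tissues, miR-93 was lower in AOM-DSS than in APC normal mucosa, with a log2 fold change of -0.43 ± 0.12 and an adjusted p of 0.0487 by edgeR's quasi-likelihood test. That 1 of 3 compares with 1.78% of tested miRNAs called lower and 1.07% that did not overlap in that direction. The call was lost when any single normal library other than APC normal 5, AOM-DSS normal 3 and AOM-DSS normal 7 was left out, with values between -0.47 and -0.36. miR-106b had a log2 fold change of -0.35 ± 0.15 (adjusted p = 0.243) and miR-25 of -0.28 ± 0.12 (adjusted p = 0.221). Between the tumours, AOM-DSS against APC gave -0.18 ± 0.16 for miR-106b, -0.06 ± 0.13 for miR-93 and 0.08 ± 0.13 for miR-25, with adjusted p-values of 0.601, 0.841 and 0.796. None was called, where 8.7% of tested miRNAs were. The APC libraries and the AOM-DSS libraries shared no cartridge, so model and cartridge cannot be told apart in these comparisons.

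The size of the members' rise depended on the scaling. Scaling by library total moved the median log2 fold change of all tested miRNAs in APC tumours to 0.69, against 0.04 with TMM, and scaling to the 4 mRNA probes moved it in AOM-DSS tumours to -0.40, against 0.07 with TMM. A scaling moves all miRNAs of a library alike, so taking away that median removes most of its effect by construction, and the values that remain show the members' place among the miRNAs, not stability. Relative to the median, miR-25 was higher by 0.69 to 0.74 in APC tumours and by 1.00 to 1.03 in AOM-DSS tumours over 6 scalings. miR-93 was higher by 0.59 to 0.62 and by 0.90 to 0.94. miR-106b was higher by 0.33 to 0.45 and by 0.51 to 0.54. Scaled to the mRNA probes, AOM-DSS tumours gave 0.10 for miR-106b (adjusted p = 0.760, edgeR), 0.50 for miR-93 (adjusted p = 0.0698) and 0.60 for miR-25 (adjusted p = 0.0126). Those 4 mRNA probes did not move together. Set against the TMM-scaled miRNA total, their log2 differences between AOM-DSS tumours and AOM-DSS normal samples were 0.93 for Rpl19, 0.58 for Actb, 0.55 for Gapdh and -0.08 for B2m.

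**Figure D3:**
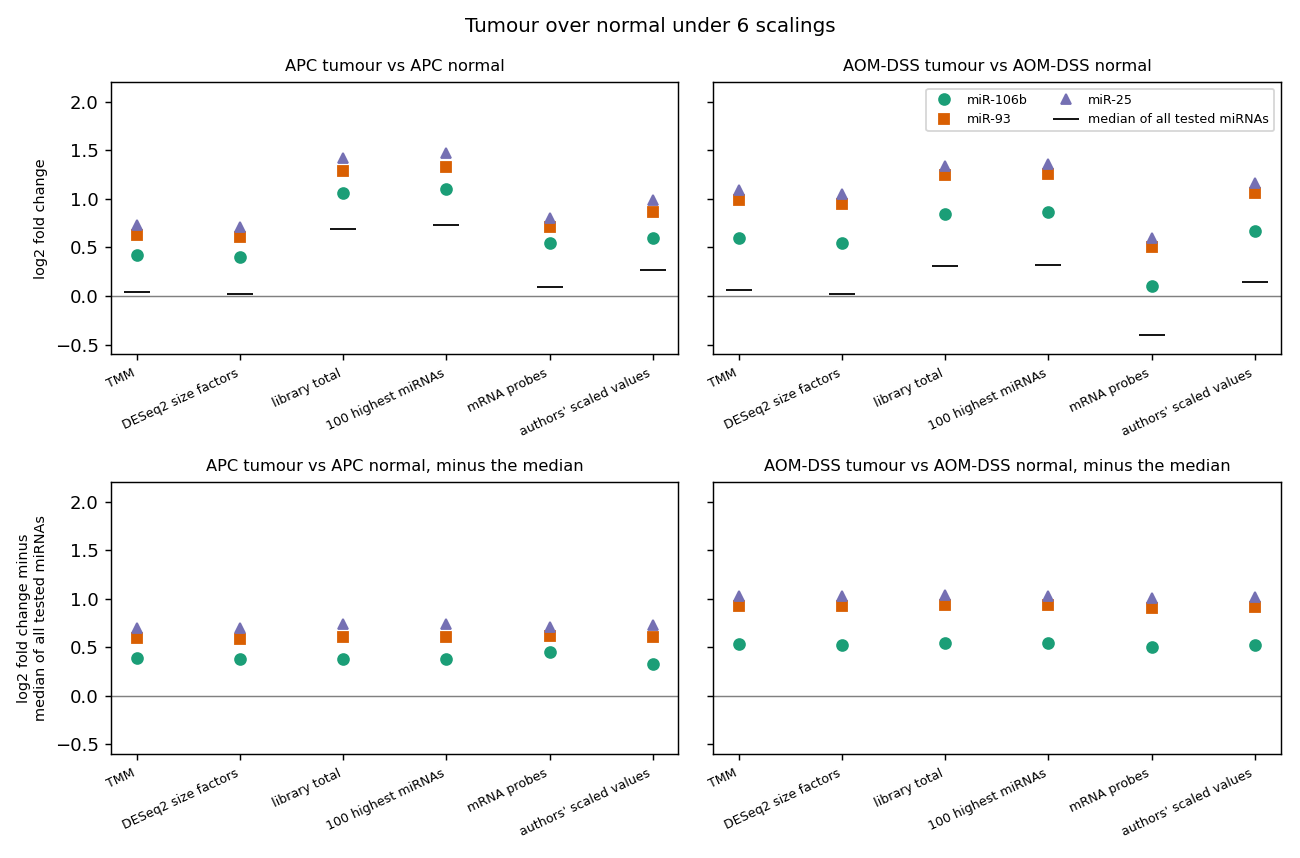
Log2 fold change of each member, tumour over normal, under 6 ways of scaling the libraries, with the median of all tested miRNAs as a black dash (top), and the same values minus that median (bottom), for the APC model (left) and the AOM-DSS model (right). The member values move with the median in the top panels, and the bottom panels, where that shared shift is taken away by construction, show their distance from the median.

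The relatives with the miR-17 seed rose with the members, and the measured relatives with the miR-25 seed lay at background. Among miR-17 family probes outside the cluster, 2 of 2 were higher in each tumour comparison, where 9.24% of tested miRNAs were in APC and 8.53% in AOM-DSS tumours. They were the joint probe for miR-106a and miR-17 and the joint probe for miR-20a and miR-20b. Each counts near-identical miRNAs together, so these 2 probes do not tell the Mir17 and Mir106a clusters apart. Separate probes counted miR-18a and miR-19a, made only from the Mir17 cluster, and miR-18b and miR-363, made only from the Mir106a cluster. miR-19a was over background in every library, and miR-18b and miR-363 in none. Whether those low counts come from little RNA or from the probes was not tested. The miR-106a+miR-17 probe had 6803, 6796, 6728, 6910.4 and 6753 CPM in APC tumours 1 to 5, against a lowest, median and highest level of 2897, 3718 and 5662 CPM in APC normal samples. APC tumour 1, low for miR-106b, was level with the other tumours for this probe, but several other named probes were low in that library, as given with the likeness values. The log2 fold changes were 0.79 ± 0.14 in APC tumours and 0.99 ± 0.13 in AOM-DSS tumours (adjusted p = 2.04e-05 and 9.06e-08, edgeR). The miR-20a+miR-20b probe gave 0.75 ± 0.15 in APC tumours and 1.00 ± 0.14 in AOM-DSS tumours (adjusted p = 0.000118 and 2.85e-07). The list medians were 0.77 in APC and 1.00 in AOM-DSS tumours, against 0.04 and 0.07 over all tested miRNAs.

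Of the miR-25 seed family, miR-32, miR-92a, miR-92b, miR-363 and miR-367 were measured. All 5 were at or below background in every library, with at most 51 raw counts. In each tumour comparison 0 of 5 were called. Of all tested miRNAs, 9.24% were called higher and 12.6% lower in APC tumours, and 8.53% each way in AOM-DSS tumours. Counts at background can hardly show a change, so the absent calls do not tell whether these miRNAs changed. Whether these low counts come from little RNA or from the probes was not tested, and miR-92a is the one in doubt, since it is often abundant elsewhere and its probe sequence could not be checked. Their median log2 fold change, from counts at background, was -0.04 in APC tumours and 0.08 in AOM-DSS tumours. miR-25 was thus the 1 probe with that seed counted over background.

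Of the other miRNAs made from the paralogous clusters, 1 of 4 was higher in APC tumours and 3 of 4 in AOM-DSS tumours, set against the same 9.24% and 8.53% of tested miRNAs. miR-19a, whose seed is different again, averaged 4123 ± 250.2 CPM in APC tumours and 3013 ± 629 CPM in APC normal samples, a log2 fold change of 0.45 ± 0.14 (adjusted p = 0.0143, edgeR). In AOM-DSS tumours its log2 fold change was 0.79 ± 0.13, that of miR-19b 0.95 ± 0.15 and that of miR-18a 1.13 ± 0.16, all called. In APC tumours miR-19b gave 0.37 ± 0.17 (adjusted p = 0.113) and miR-18a 0.28 ± 0.17 (adjusted p = 0.279). miR-18b lay at background throughout. The list medians were 0.33 in APC and 0.87 in AOM-DSS tumours. These lists were chosen with earlier results of the same data known, so their counts are a description.

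**Figure D4:**
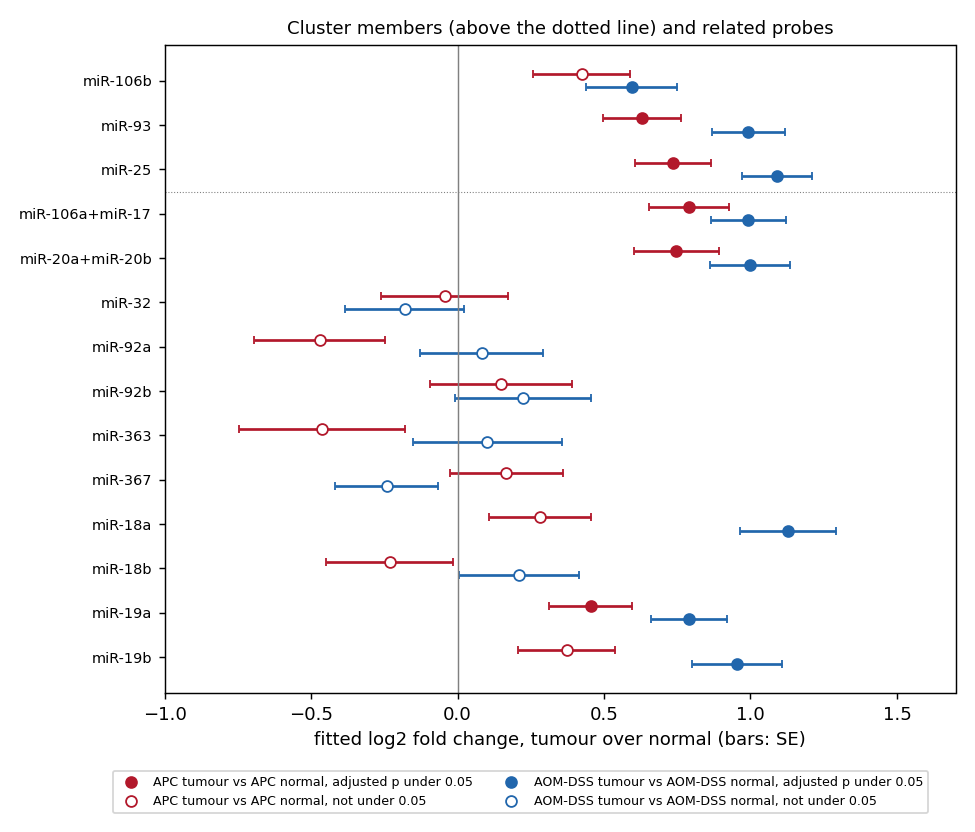
Fitted log2 fold change, tumour over normal, with SE bars, of the 3 members (above the dotted line) and 11 related probes, for APC (red) and AOM-DSS (blue) and with filled points for an adjusted p under 0.05. miR-106b lies left of miR-93 and miR-25 in both models, and the 5 probes with the miR-25 seed scatter around 0. Those 5 probes and miR-18b lay at or below background in every library, so their points do not measure a change.

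The members moved together over the libraries, less so within groups. Over 24 libraries the log2 CPM of miR-93 and miR-25 correlated at r = 0.920, of miR-106b and miR-93 at 0.813 and of miR-106b and miR-25 at 0.664. Without APC tumour 1 the last was 0.848. After each group's mean was taken away, the same pairs gave r = 0.328, 0.671 and 0.119, and 0.455, 0.687 and 0.570 without APC tumour 1. Points share the library and its scaling, so these values describe only.

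The 5 probes whose log2 CPM was most like the mean of the members over 24 libraries, of 219 ranked, included 4 from the paralogous clusters. They were miR-106a+miR-17 (r = 0.957), miR-19a (0.921), miR-20a+miR-20b (0.920), miR-96 (0.914) and miR-19b (0.902). Ranks 6 to 10 held miR-31 (0.900), miR-183 (0.896), miR-27b (0.894), miR-135b (0.890) and miR-200c (0.888), none from those clusters. The paralogue miR-18a ranked 14 (0.823). These values include the difference between tumours and normal samples, so the likeness was not particular to the paralogues. miR-96, a miRNA of the miR-183 cluster, was higher in APC tumours by 1.52 ± 0.15 and in AOM-DSS tumours by 1.25 ± 0.14 on the log2 scale (adjusted p = 1.77e-10 and 4.91e-09, edgeR). Within groups the closest were let-7b (r = 0.783), miR-21 (0.782), miR-19b (0.774), miR-96 (0.772) and miR-203 (0.762). All 5 of these were lowest among the APC tumours in APC tumour 1, as was the members' mean. Without that library the values were 0.727 for let-7b, 0.646 for miR-21, 0.727 for miR-19b, 0.623 for miR-96 and 0.602 for miR-203. The miR-106a+miR-17 probe gave 0.718 within groups with all libraries, rank 9 of 219, and 0.892 without APC tumour 1. With all libraries, miR-19a gave 0.674 within groups (rank 17) and miR-20a+miR-20b 0.486 (rank 72). Without APC tumour 1 they gave 0.748 and 0.707. Ranks without that library are not given. In APC tumour 1 miR-203 had 828 CPM, against 2776 to 3578 CPM in the other APC tumours, and miR-21 had 58952 CPM, against 105774 to 122212 CPM. let-7b belongs to a family linked to differentiation, and its log2 fold change was 0.20 ± 0.13 in APC tumours and 0.10 ± 0.12 in AOM-DSS tumours, neither called. miR-21, often raised in tumours, gave 0.43 ± 0.15 in APC tumours (adjusted p = 0.0409, edgeR) and -0.03 ± 0.14 in AOM-DSS tumours (adjusted p = 0.939). miR-203, known in epithelial differentiation, rose by 0.86 ± 0.24 and 0.94 ± 0.22 (adjusted p = 0.00726 and 0.00221).

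**Figure D5:**
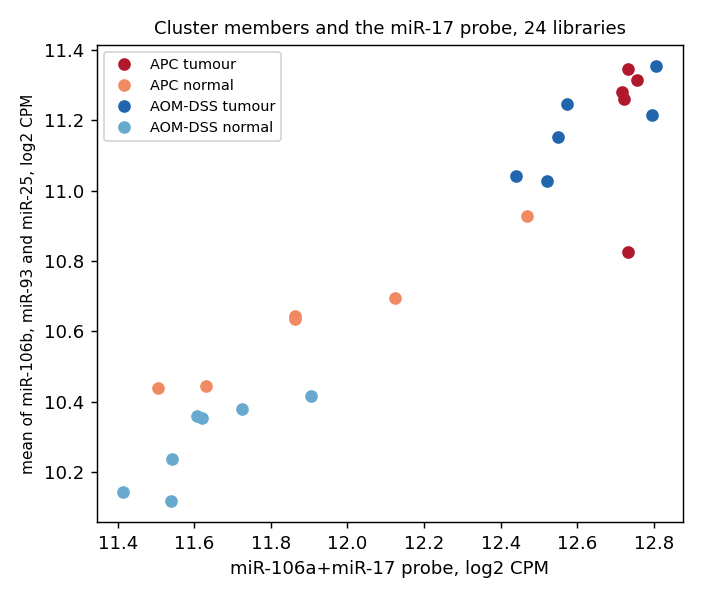
Mean log2 CPM of miR-106b, miR-93 and miR-25 against the log2 CPM of the miR-106a+miR-17 probe, with 1 point per library coloured by group. Over the 24 libraries r was 0.957, which includes the difference between tumours and normal samples, and within groups it was 0.718. Tumours lie at the upper right, and 1 APC tumour lies below the other 4.

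Markers of other tissue layers moved with the tumour comparisons, and their part in the members' rise was not tested. In bulk tissue, fewer cells of a type and less RNA per cell cannot be told apart. Of 5 muscle markers, 4 were lower in APC tumours and 4 in AOM-DSS tumours, where 12.6% and 8.53% of all tested miRNAs were called lower, among them miR-143 with log2 fold changes of -3.61 ± 0.28 and -2.24 ± 0.24. Their summed level was 10379 to 24382 CPM in APC tumours, against 172038 to 340301 CPM in APC normal samples, and 14987 to 48061 CPM in AOM-DSS tumours, against 146764 to 184664 CPM in AOM-DSS normal samples. Of all tested miRNAs, 9.24% were called higher in APC tumours and 8.53% in AOM-DSS tumours. Of 8 epithelial markers measured, 1 was higher and 5 lower in APC tumours, and 2 were higher and 1 lower in AOM-DSS tumours. Their summed level was 66303 to 84226 CPM in APC tumours, against 97453 to 132938 CPM in APC normal samples, and 82791 to 105581 CPM in AOM-DSS tumours, against 72991 to 109768 CPM in AOM-DSS normal samples. All 8 were over background in every library, so the epithelial markers of the labelled mucosa were present.

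Fibroblast, leukocyte, erythrocyte and endothelial markers were counted in the same way. Of 3 fibroblast markers 1 was higher in APC tumours, and of 5 leukocyte markers 1 was higher and 1 lower. Of 3 erythrocyte markers 1 was lower there, and of 2 endothelial markers 1 was higher. These counts compare with 9.24% of all tested miRNAs called higher and 12.6% called lower in APC tumours. In AOM-DSS tumours 1 leukocyte marker, miR-223, was higher, and the fibroblast, erythrocyte and endothelial lists held 0 calls. In that comparison 8.53% of all tested miRNAs were called higher and 8.53% lower. The leukocyte markers summed to 11192 to 17408 CPM in APC tumours, against 10951 to 22922 CPM in APC normal samples, and to 14812 to 30681 CPM in AOM-DSS tumours, against 16370.1 to 34904 CPM in AOM-DSS normal samples. The summed levels of the fibroblast, erythrocyte and endothelial markers also overlapped between tumours and normal samples of each model. No marker was listed at 0 in any library, but some lay at or below background. Of 5 muscle markers, 3 did so in every APC tumour, 1 in every AOM-DSS tumour and 1 in every AOM-DSS normal sample. Of 3 erythrocyte markers, 1 did so in every APC tumour and 1 in every AOM-DSS normal sample. In APC tumour 1 the summed markers of 5 of the 6 lists were the lowest of the 5 APC tumours, at 10379 CPM for muscle, 66303 CPM for epithelium, 7530.1 CPM for fibroblast, 727 CPM for erythrocyte and 13265 CPM for endothelial markers.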

How the data were processed

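Per the file headers, the authors' deposited raw counts cover 24 libraries on 3 cartridges. In the other deposited table the signal is each raw count times 1 factor per library, with the 33 raw counts of 0 taken as 1. Each of its 24 columns matched 1 raw column times a constant (tolerance 1e-06), which gave the library numbers, and 6 raw columns matched by name. The sources used here name neither the basis of that factor nor any software, and columns of no sample numbered 0.

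Mouse miRNA counts were fitted with edgeR 4.0.16 in R 4.3.3. The filter (filterByExpr with a minimum count of 10 and a minimum total of 15) left 563 of 566 probes. TMM scaled the libraries, and 1 robust quasi-likelihood model covered the 4 groups, with Benjamini-Hochberg adjustment. SE is the log2 fold change over the root of its F statistic. Correlations used log2 CPM with a prior count of 2. DESeq2 1.42.0 and limma 3.58.1 (limma-voom, and limma on the authors' scaled signal with a pseudocount of 1) were alternatives. Ratios were tested in Python 3.11.15 with scipy 1.17.1. Fits and ratio tests were tested on simulated data. Libraries of a group were compared pairwise, and none repeated another within sampling noise. The promoter background leaves out chromosome 18.

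The members, the related and marker lists and most tests were chosen with earlier results of these data known. Named miRNAs were the members, all probes of the 3 related lists, and the 5 probes most like the members over all libraries and within groups. Ranks 6 to 10 over all libraries are given for comparison only.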

Additional observations from a re-analysis of the deposited data

Results flagged for a closer look

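miR-106b in APC tumour 1, at 929.8 CPM, lay far from the other APC tumours, which held 2095 to 2367 CPM. In the same library the log2 ratio of miR-93 over miR-106b was 0.69, against -0.40 to -0.21 in the other APC tumours. The log2 ratio of miR-25 over miR-106b was 2.18 there, against 0.61 to 0.87. miR-106b in APC normal 1, at 1901 CPM, was far above the other APC normal samples, at 1331 to 1528 CPM. In all, 4 of 24 such checks of a single library against its group stood out. Chance flags about 1 in 20 independent groups, but these checks are not independent, since 3 of the 4 rest on the same miR-106b count in APC tumour 1. Among related probes, miR-18a rose more in AOM-DSS than in APC tumours, by 0.85 on the log2 scale (adjusted p = 0.0232, edgeR's interaction test). In that test 6.75% of all tested miRNAs were called. The models shared no cartridge, and values of miR-18a under other scalings are not given here. Of the AOM-DSS normal libraries, 4 of 7 had miR-18a over background.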

How the results depend on the processing

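The rises of miR-25 in both tumour comparisons and of miR-93 in APC tumours passed the threshold under every alternative run, including each left-out library, and that of miR-93 in AOM-DSS tumours under all but scaling to the mRNA probes (0.50). In APC tumours miR-106b passed by library total (1.06), by the 100 highest miRNAs (1.10), among miRNAs over viral background (0.55), with that background subtracted (0.53), in the authors' scaled signal (0.59) and without both APC tumour 1 and AOM-DSS normal 7 (0.60). Leaving out single libraries gave 0.36 to 0.60, and it passed only without APC tumour 1. In AOM-DSS tumours miR-106b failed with the mRNA probes (0.10) and within cartridges 1 and 2 (0.61). The difference between the models turned negative by library total (-0.22 for miR-106b, -0.047 for miR-93, -0.088 for miR-25), by the 100 highest miRNAs (-0.24, -0.073 and -0.12 in that order) and by the mRNA probes (-0.44, -0.21 and -0.21). For miR-106b it ranged over -0.010 to 0.24 when single libraries were left out, negative without APC tumour 1, and for miR-93 it passed among miRNAs over viral background (0.31). Between normal tissues, miR-106b passed among miRNAs over viral background (-0.34) and without both libraries (-0.37). miR-93 failed there with DESeq2 size factors (-0.44), library total (-0.21), the 100 highest miRNAs (-0.19), the mRNA probes (-0.35), no filter (-0.39) and the authors' scaled signal (-0.31), and ranged over -0.47 to -0.36 when single libraries were left out. Between tumours, miR-106b passed with the mRNA probes (-0.72), and miR-25 turned negative by library total (-0.13), the 100 highest miRNAs (-0.14), the mRNA probes (-0.38) and with background subtracted (-0.031). No ratio changed its side of the threshold.

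Counts of called miRNAs moved too. In APC tumours 123 (52 higher, 71 lower) became 378 by library total (353 higher, 25 lower), 397 by the 100 highest miRNAs (373 higher, 24 lower) 74 by the mRNA probes (30 higher, 44 lower) and 128 in the authors' scaled signal (86 higher, 42 lower). In AOM-DSS tumours 96 (48 higher, 48 lower) became 60 with cartridge 3 as a term and 58 within cartridges 1 and 2, and the split became 104 higher and 25 lower by library total, 109 and 25 by the 100 highest miRNAs, and 10 and 111 by the mRNA probes. For the difference between models, 38 became 61, 65 and 59 by library total, by the 100 highest miRNAs and without both libraries, and 18 and 17 with cartridge 3 as a term and within cartridges 1 and 2. Between normal tissues, 19 became 41, 42, 4, 39 and 29 by library total, the 100 highest miRNAs, the mRNA probes, among miRNAs over viral background and without both libraries, and 8 to 17 when single libraries were left out. Between tumours, 49 became 16 and 10 with cartridge 3 as a term and within cartridges 1 and 2, and 28 to 52 when single libraries were left out. The causes were not tested.

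With the replicate number as a block (replicate block), the APC changes were 0.39, 0.63 and 0.75 and the AOM-DSS changes 0.62, 1.02 and 1.07 for miR-106b, miR-93 and miR-25, with 100 and 90 miRNAs called, and no member's call changed. Same-numbered libraries correlated at -0.34 to 0.13 in their deviations and none best with its own number, so the numbers were not taken to pair samples. Depth limited AOM-DSS normal 7, with 49, 37 and 66 raw counts of miR-106b, miR-93 and miR-25, and the number of libraries limits the rest.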
